A study of Mus musculus with 2 samples.

Results

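Pvalb, Calm2, Calm3 and S100a1 encode small cytosolic proteins that bind calcium through EF-hands, and all 4 were read as full-length cDNA in mouse calf muscle. The members were the annotated genes with these symbols, with every transcript model assigned to them, in both libraries of the series. They make up 4 of the 14704 annotated genes with a read in either library. Replicate 1 gave them 34 of its 76063 transcript models and 3823 reads, and replicate 2 gave them 32 of 50032 models and 3539 reads.

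The tissue was gastrocnemius, the large calf muscle, of male B6CASTF1/J mice 14 days old, the first-generation offspring of C57BL/6 and CAST parents. There is 1 group with 2 biological replicates and no second condition, and 2 µg of RNA went into each library. The labels give both libraries the same donor identifier and speak of several males, and do not say whether animals were pooled. Each SD is therefore the spread between these libraries, which may be technical, and each p-value compares the 2 libraries and not conditions.

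In striated muscle, calcium released from the sarcoplasmic reticulum binds troponin C and starts contraction, and pumps then return it to the store. Parvalbumin, encoded by Pvalb, is the soluble calcium buffer of fast fibres and speeds their relaxation. Calmodulin is a calcium sensor that switches on kinases and the phosphatase calcineurin, and Calm2 and Calm3 are separate genes that encode the same protein. S100A1 is a dimeric S100 protein of muscle that binds, among others, the ryanodine receptor and the calcium pump.

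Replicate 1 held 1094607 reads and replicate 2 held 626289 after the ERCC spike-in RNAs were set aside, and 98.0% and 96.7% of them lay on annotated genes. An absent gene could still have up to 3 reads, or 2.74 and 4.79 counts per 1000000 reads (CPM). The 7 fast-fibre markers were all detected and summed to 68172 CPM in replicate 1 and 76875 CPM in replicate 2. The sums for 6 slow-fibre markers were 1799 and 2483 CPM. These sums hide opposite moves in the library test described below. Of the fast-fibre markers, 4 were called higher in replicate 2 and 3 lower, and of the slow-fibre markers 2 higher and 1 lower. Against the trend with transcript length, also described below, 3 fast-fibre markers were called higher and 2 lower. Of the slow-fibre markers 1 was then higher and 1 lower. The fast-fibre marker Tnni2 was called higher without this trend and lower against it. The 4 markers of inhibitory neurons, another cell type known for parvalbumin, had no read in either library. Some markers of other cells moved between the libraries, where 13.5% of all tested genes were called. In replicate 2, 3 of 3 tested Schwann cell markers were higher (301 CPM against 546 CPM summed). There 3 of 4 fibroblast markers were lower (6908 CPM against 2716 CPM). Of the tested erythroid markers 2 of 3 were higher, and 2 of 2 chondrocyte and bone markers were lower. Of the endothelial markers 1 of 4 was lower, and 0 of 2 immune markers were called. Against the length trend 6.79% of all tested genes were called. The calls of Schwann cell, fibroblast and endothelial markers stayed. Of the erythroid markers 1 of 3 was then called, higher in replicate 2, and of the chondrocyte and bone markers 0 of 2. Their part in the results below was not tested. In tissue, fewer cells of a type and less RNA per cell cannot be told apart.

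The coding sequences show what the proteins share. The common form of EF-hand holds calcium in a loop of 12 residues, encoded by 36 bases. The acidic or polar residues at loop positions 1, 3, 5 and 12 contribute to the calcium site. The annotated coding sequences were searched for a pattern of this loop that sets 6 of the 12 residues. It matched 4 loops each in Calm2 and Calm3, 2 in Pvalb and 1 in S100a1. Loops of another length or sequence would be missed, so these are not counts of all EF-hands in the proteins. The Pvalb and S100a1 loops are shown with the codons of positions 1, 3, 5 and 12 in capitals, taken from the GENCODE M21 transcripts on mm10.
Pvalb loop 1, chr15:78202526-78202561, minus strand, exon 3 of Pvalb-202: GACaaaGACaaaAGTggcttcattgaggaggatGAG
Pvalb loop 2, chr15:78191693-78201259, minus strand, across the last intron: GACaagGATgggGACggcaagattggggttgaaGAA
S100a1 loop, chr3:90511284-90511319, minus strand, exon 3 of S100a1-201: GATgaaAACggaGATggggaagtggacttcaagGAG

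The first loop of Calm2 and Calm3 is shown because it lies in 1 exon in both, with capitals for the bases that differ between them.
Calm2 loop 1, chr17:87435873-87435908, minus strand, exon 3: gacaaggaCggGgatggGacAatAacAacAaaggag
Calm3 loop 1, chr7:16917667-16917702, minus strand, exon 3: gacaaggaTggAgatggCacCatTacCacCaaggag

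Of the 36 bases, 7 differ between Calm2 and Calm3. Over the whole coding sequence of 450 bases, stop codon included, Calm2 and Calm3 differed at 78 bases, an identity of 82.7%. No differing codon changed the residue, and 74 of the 78 differences lay at the last base of a codon. The longest identical coding run was 17 bases. Whether the authors' counting moved any read between them was not tested. No annotated pseudogene carries a member's symbol.

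Pvalb had 3176 reads in replicate 1 and 3190 in replicate 2, or 2901 and 5093 CPM (3997 ± 1550 CPM, SD, n = 2). It ranked 29th of the detected genes in replicate 1 and 18th in replicate 2. Calm3 had 372 and 144 reads, or 340 and 230 CPM (285 ± 77.7 CPM, SD, n = 2). Calm2 had 213 and 144 reads, or 195 and 230 CPM (212 ± 24.99 CPM, SD, n = 2). S100a1 had 62 and 61 reads, or 56.6 and 97.4 CPM (77.0 ± 28.8 CPM, SD, n = 2). Pvalb and S100a1 were higher in replicate 2, and Calm3 was higher in replicate 1. The range of Pvalb lay above, and that of S100a1 below, the ranges of the other members, while Calm2 and Calm3 met at the same read count in replicate 2.

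**Figure D1:**
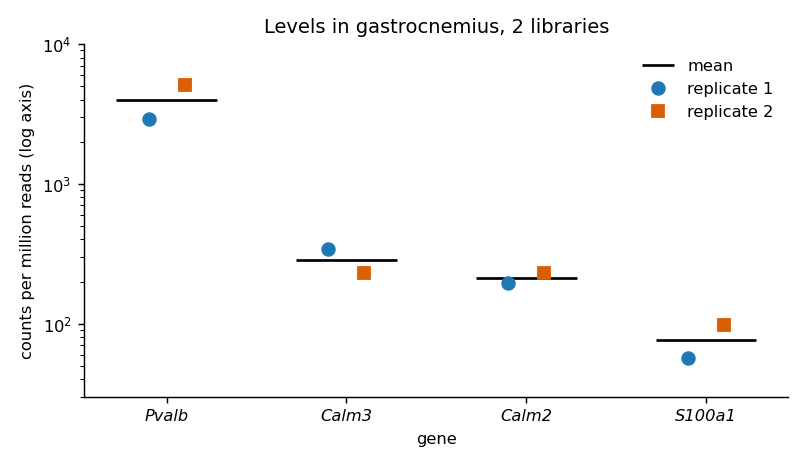
Level of each member in CPM on a log axis, with a circle for replicate 1, a square for replicate 2 and a line for their mean. Pvalb lies at 2901 and 5093 CPM and S100a1 at 56.6 and 97.4 CPM, with Calm2 and Calm3 between them.

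One long read comes from 1 cDNA and is not cut into pieces by length, so the levels above are not divided by transcript length, and division by it is given as a second scale to compare genes. On the scale of CPM per kb of the complete models, Pvalb was at 4194 ± 1626, Calm2 at 176 ± 20.8, Calm3 at 125 ± 34.0 and S100a1 at 114 ± 42.7 (SD, n = 2). Calm2 lay above Calm3 in both libraries on this scale (162 and 191 against 149 and 101 CPM per kb). The ranges of Calm3 and S100a1 overlapped (84.0 and 144 CPM per kb for S100a1). The order of Calm2 and Calm3 thus depended on the scale, and Pvalb led on both.

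Within each library, Pvalb had 8.54 times as many reads as Calm3 in replicate 1 and 22.2 times in replicate 2. Calm3 had 1.75 times as many reads as Calm2 in replicate 1 and as many in replicate 2. Calm2 had 3.44 times the reads of S100a1 in replicate 1 and 2.36 times in replicate 2. The distance between Pvalb and Calm3 was thus wider in replicate 2, and those between Calm3 and Calm2 and between Calm2 and S100a1 were narrower.

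The genes nearest to each member in log2 CPM over the 2 libraries were chosen among 11160 genes with a read in both. Cox4i1, a subunit of cytochrome c oxidase, and Pgam2, the muscle phosphoglycerate mutase, lay nearest to Pvalb (distances 0.17 and 0.31). Calm2 lay nearest to Rps7, a ribosomal protein gene, and Scp2, the sterol carrier protein gene (0.06 and 0.10). The neighbours of Calm3 were Ech1, an enzyme of fatty acid oxidation, and P4hb, protein disulfide isomerase (0.03 and 0.03). S100a1 had the mitochondrial ribosomal genes Mrpl20 and Mrpl54 beside it (0.03 and 0.05). With 2 libraries, likeness here means a like level and a like ratio between them.

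The difference between the libraries was tested with Fisher's exact test, two-sided, of each gene's reads against the rest of its library, with Benjamini-Hochberg adjustment and a threshold of 0.05. Of 7955 genes with at least 10 reads, 1070 were called, or 13.5%, and 3 of the 4 members were among them. Pvalb was 1.76-fold higher in replicate 2 (95% interval 1.67 to 1.84, adjusted p = 6.41e-108). S100a1 was 1.72-fold higher there (1.19 to 2.49, adjusted p = 0.0301). Calm3 stood at 0.677 of its replicate 1 level in replicate 2 (0.554 to 0.822, adjusted p = 0.000893). Calm2 was not called, at 1.18-fold (0.950 to 1.47, adjusted p = 0.36), so a rise of up to 1.47-fold lies within its interval. All intervals here and the limits given for absent reads reflect counting alone, as no molecular identifiers were used. TMM scaling would add 0.18 to every log2 ratio, and under it Calm3 was no longer called (adjusted p = 0.0565). The call of S100a1 was lost with annotated models only (adjusted p = 0.0521), with no read minimum (adjusted p = 0.0553) and with replicate 1 thinned to the depth of replicate 2 (adjusted p = 0.146).

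The library ratio moved with transcript length across all genes. Replicate 2 held relatively more short transcripts: a smooth trend over 7847 genes, whose median log2 ratio was -0.26, stood at 0.68 at the length of S100a1 (675 bases) and at 0.36 at that of Pvalb (953 bases). It was 0.12 at the 1203 bases of Calm2 and -0.35 at the 2284 bases of Calm3. The members' own log2 ratios were 0.78 for S100a1, 0.81 for Pvalb, 0.24 for Calm2 and -0.56 for Calm3, so Pvalb stood above the shorter S100a1, where the trend is lower. Against this trend 535 of 7878 genes were called, or 6.79%, and of the members Pvalb alone (0.45 above the trend, adjusted p = 3.47e-33). S100a1 then lay 0.11 above it (adjusted p = 1), Calm2 0.12 above (adjusted p = 0.911) and Calm3 at -0.21 (adjusted p = 0.569).

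The remaining difference of Pvalb changed with which of its reads were counted. With complete models only, those that match an annotated transcript or splice it in a new way from end to end, Pvalb had 2446 CPM in replicate 1 and 3110 CPM in replicate 2. The log2 ratio of these reads was 0.35, and the trend refitted on complete models gave 0.29 at this length. The difference of 0.06 was not called (adjusted p = 0.712, exact binomial test). In that comparison, chosen after seeing the data, 302 of 6941 genes were called, or 4.35%, and 0 of the 4 members, with 0 members at an unadjusted p under 0.05 as well.

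**Figure D2:**
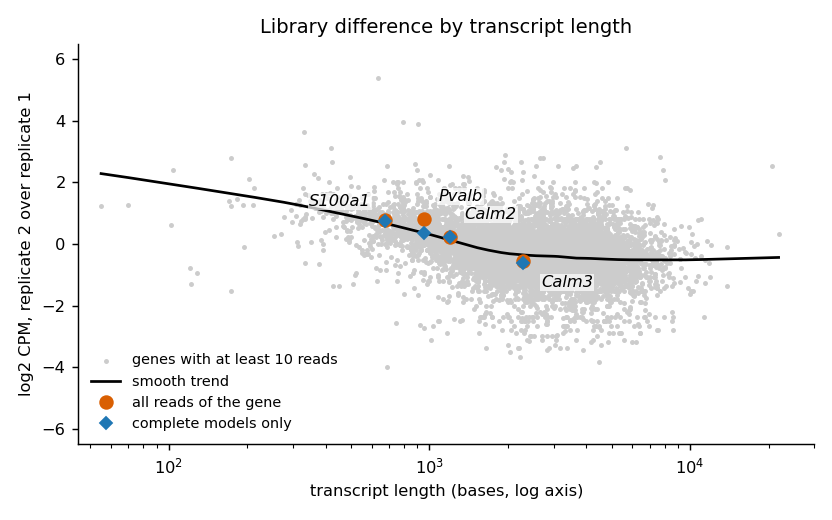
Log2 ratio of CPM, replicate 2 over replicate 1, against transcript length in bases on a log axis, with a grey point per gene, the smooth trend as a line, circles for all reads of a member and diamonds for its complete models. The circle of Pvalb lies at 0.81 and its diamond at 0.35. The line, fitted to all reads, is at 0.36 there, and the circles of the other 3 members lie near it. The trend refitted on complete models is not drawn. It was 0.29 for Pvalb and -0.45 for Calm3, whose diamond is at -0.61.

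Pvalb lies on the minus strand at chr15:78191114-78206400 (mm10) and has 2 annotated transcripts. Pvalb-202 has 5 exons and 953 bases and starts at an upstream first exon of 64 bases that is wholly untranslated. Pvalb-201 has 4 exons and 977 bases and starts inside the first intron of the other, at an exon of 153 bases that runs into the second exon of Pvalb-202. Both carry the same coding sequence of 333 bases, stop codon included, identical at every base, so the first exon alters the 5′ untranslated region alone. Pvalb-202 had 2500 reads in replicate 1 and 1833 in replicate 2, and Pvalb-201 had 162 and 103. Among reads on models with either first exon, 93.8% spliced the upstream exon to exon 2 in replicate 1 (2512 of 2678, exact Clopper-Pearson 95% interval 92.8% to 94.7%). In replicate 2 this share was 94.5% (1838 of 1945, 93.4% to 95.5%). The mean was 94.2% ± 0.493 (SD, n = 2), and Fisher's exact test found no difference between the libraries (p = 0.343). These shares lay within a percentage point of each other. The introns of Pvalb-201 are all introns of Pvalb-202 as well. A read of Pvalb-202 that broke off inside exon 2 could therefore be counted as Pvalb-201. Such reads were not told apart, so the share of the downstream start may be too high. Between the same libraries, reads on complete Pvalb models had a log2 ratio of 0.35, replicate 2 over replicate 1.

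The 250 bases before each of the 2 annotated starts are printed because the reads divide so unevenly between the models with these starts. They come from RefSeq on GRCm38.p6, on the minus strand, and capitals mark the matches of a motif search.
Pvalb upstream start, chr15:78206401-78206650: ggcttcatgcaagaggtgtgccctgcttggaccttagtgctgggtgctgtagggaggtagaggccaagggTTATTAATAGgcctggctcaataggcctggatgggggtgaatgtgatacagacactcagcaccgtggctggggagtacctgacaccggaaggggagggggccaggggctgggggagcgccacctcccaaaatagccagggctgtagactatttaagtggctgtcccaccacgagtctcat
Pvalb downstream start, chr15:78204238-78204487: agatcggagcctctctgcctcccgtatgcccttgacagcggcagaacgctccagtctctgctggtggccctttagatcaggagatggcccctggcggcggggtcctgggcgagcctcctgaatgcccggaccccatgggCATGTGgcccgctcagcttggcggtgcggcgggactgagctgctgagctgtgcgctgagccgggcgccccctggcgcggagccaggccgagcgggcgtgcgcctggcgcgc

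The upstream window, before the annotated start of the model with most reads, had a GC content of 58.4% and 4 CpG. The downstream window had 71.6% and 23 CpG, against a median GC content of 52.4% over 32851 windows. Both strands were searched for the TATA box TATAAA, for the CCAAT box, for the GC box GGGCGG, for the E-box CANNTG of the MyoD family, and for the MEF2 consensus, the motif of a muscle transcription factor family. The upstream window held 1 MEF2 match, starting 180 bases before the start, and 2.92% of all windows hold one. The downstream window held 1 E-box match 111 bases before the start, and 66.2% of all windows hold one. The exact strings of the TATA box (12.4% of all windows), the CCAAT box (33.8%) and the GC box (32.7%) were in neither. Variants of these boxes were not searched for, so their absence from either window is not shown. Windows were found for 3 of the 4 members, and those of Calm3 and S100a1 held none of the 5 motifs. The windows of Calm3 and S100a1 precede RefSeq starts that lie inside the GENCODE first exons of these genes. They therefore include part of those exons and reach less far upstream of the GENCODE starts. A match is a string of letters in this window and no evidence of binding.

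Single-exon models set the libraries apart for Pvalb. The genomic class holds reads that overlap a gene without following its splicing. It took 7.71% of Pvalb reads in replicate 1 (245 of 3176, 95% interval 6.81% to 8.70%) and 28.5% in replicate 2 (909 of 3190, 26.9% to 30.1%). This difference passed Fisher's exact test (adjusted p = 1.96e-105), a comparison added after the data were seen. It was not particular to Pvalb: 228 of 1248 genes were called, or 18.3%, with 194 higher in replicate 2 and 34 higher in replicate 1, and the rise of Pvalb in percentage points ranked 71st. Calm3 had 7.26% and 9.03% of its reads in this class (27 of 372 and 13 of 144, adjusted p = 1). Calm2 and S100a1 had none, which allows up to 1.41% and 4.84% in replicate 1 (3 reads of the total). The median over all genes tested was 0.155% and 0.228%.

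**Figure D3:**
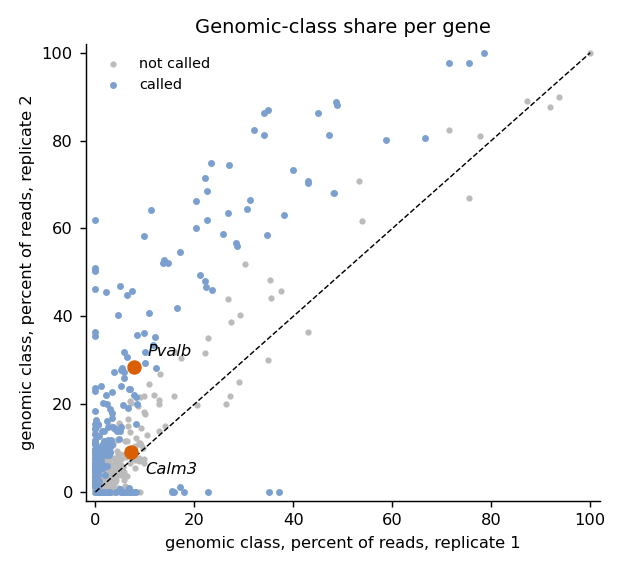
Share of a gene's reads in the genomic class, in percent, in replicate 1 against replicate 2, with a point per gene and a dashed line of equality. Pvalb lies well above the line at 7.71% and 28.5%, among many called genes on the same side, and Calm3 lies near it at 7.26% and 9.03%.

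In replicate 1, 244 of the 245 genomic reads of Pvalb belonged to a model of 3322 bases that covers the last exon and runs 2741 bases past the annotated end (chr15:78188373-78191694). In replicate 2, 908 reads belonged to a model of 4 bases at the annotated end (chr15:78191114-78191117). A model of that size cannot describe its reads, so the files do not show where these reads begin or end, and the 2 models cannot be compared by position. A further 78 reads of replicate 2 formed a single-exon partial model of 318 bases that stops 263 bases before the annotated end. Single-exon models of any class made up 7.71% of Pvalb reads in replicate 1 and 30.9% in replicate 2.

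Exon by exon from the 3′ end, the size of the first step depended on the genomic models. Of reads on models that overlap the last exon of Pvalb-202, 92.3% in replicate 1 and 69.0% in replicate 2 were also on exon 4, a difference of -23.3 percentage points. This counts the 908 reads of the 4-base model, whose place is unknown, as reads without exon 4. Without the genomic class, a setting chosen after seeing the data, the shares were 100% (2929 of 2929) and 96.5% (2202 of 2281), a difference of -3.46 percentage points. In replicate 1 all 245 single-exon reads of Pvalb were in the genomic class, so this setting removed every read confined to the last exon. In replicate 2, 78 such reads were classed as partial and stayed in. This difference thus depends on how single-exon reads were classed. From exon 4 to exon 3 the shares were 94.9% and 92.3%, and from exon 3 to exon 2 they were 96.1% and 95.6%. From exon 2 to the upstream first exon they were 93.9% and 94.6%. Once a Pvalb read had crossed the last intron of 9531 bases, the steps to the start differed by -2.64, -0.50 and 0.66 percentage points, replicate 2 minus replicate 1.

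Partial models of Pvalb, which match part of the annotated splicing, took 8.67% of complete and partial reads in replicate 1 (254 of 2931) and 14.6% in replicate 2 (333 of 2281). Fisher's exact test called this difference (adjusted p = 7.70e-10), as it did for 153 of 1159 genes, or 13.2%. Most of these reads lacked the 5′ exons: a model of the last 2 exons had 148 and 167 reads, and one of the last 3 exons had 104 and 87. Calm2 (1.88% and 2.08%), Calm3 (2.03% and 3.05%) and S100a1 (3.23% and 4.92%) were not called, and all tested genes had medians of 3.64% and 4.10%.

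**Figure D4:**
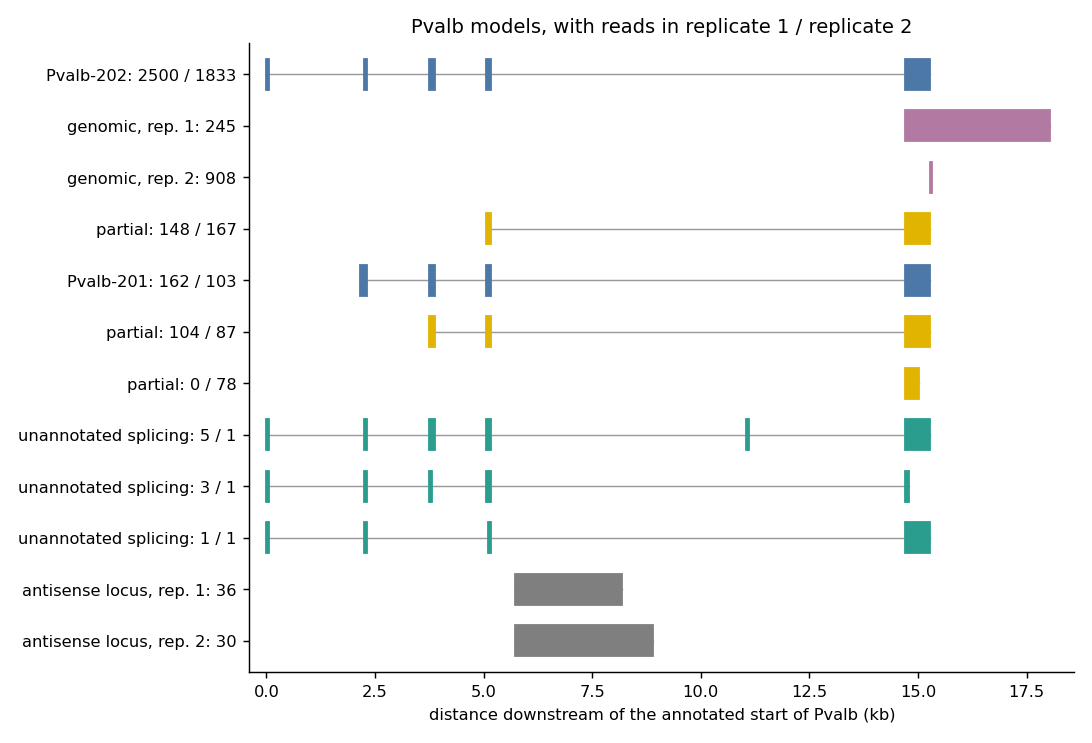
Exons (boxes) and introns (lines) of Pvalb models by distance in kb from the annotated start, each with its reads in replicate 1 and replicate 2; genomic models and the antisense locus are drawn per library, and 244 of the 245 genomic reads of replicate 1 are on the model drawn. Most reads lie on Pvalb-202. The genomic model drawn for replicate 2 is 4 bases long and does not show where its 908 reads lie.

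Model ends are those of the models and, for annotated models, of the annotation, so they place no poly(A) site on their own. Models ending within 25 bases of the annotated end of Pvalb took 92.1% of its reads in replicate 1 and 97.1% in replicate 2, the 4-base model included. In replicate 1 another 7.68% (244 reads) lay on the genomic model that ends 2741 bases past the annotated end. The end of that model need not be the end of each of its reads. The corresponding shares were 98.6% and 99.3% for Calm2 and 100% and 97.9% for Calm3. All reads of S100a1 lay on models with the annotated end.

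Splicing outside the annotation was rare in Pvalb. Of its 21 introns seen, 4 are annotated and carried 10887 and 8011 intron crossings, and 17 are not and carried 20 and 15. Of these 17 introns, 4 were seen in both libraries. A 6-exon model with an extra exon of 70 bases in the last intron (chr15:78195285-78195354) had 5 reads in replicate 1 and 1 in replicate 2. That length is not a multiple of 3 bases. A model with exon 3 shortened by 65 bases at its 3′ side had 3 reads and 1 read, and the lost stretch includes the first calcium loop printed above. Another model left out exon 3 and began exon 4 26 bases late, with 1 read in each library. At 1 to 5 reads, these models are at or near the limit of 3 reads.

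Calm2, on the minus strand at chr17:87433412-87446935, was read almost entirely as Calm2-201, a transcript of 6 exons and 1205 bases. This transcript took 206 of 209 complete reads in replicate 1 (98.6%) and 141 of 141 in replicate 2. Calm3, on the minus strand at chr7:16915379-16924114, was read as Calm3-201, of 6 exons and 2290 bases, in 333 of 338 complete reads (98.5%) and 125 of 127 (98.4%). S100a1, on the minus strand at chr3:90511034-90514392, was read as S100a1-201, of 3 exons and 677 bases, in 60 of 60 and 57 of 58 complete reads. Pvalb-202 took 93.4% and 94.1% of the complete reads of Pvalb. None of the 4 leading shares was called between the libraries, where Fisher's exact test called 15 of 961 genes, or 1.56%, and the median gene had 94.8% and 94.7%.

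**Figure D5:**
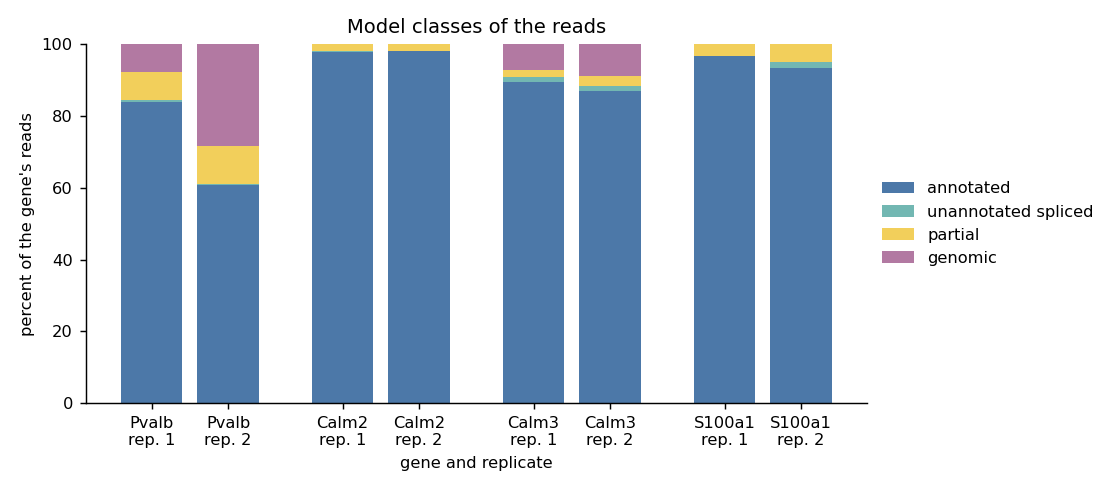
Share of each member's reads, in percent, on annotated, unannotated spliced, partial and genomic models, with a bar per library. Annotated models hold 83.8% of Pvalb reads in replicate 1 and 60.7% in replicate 2, and 97.7% and 97.9% of Calm2 reads.

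Calm2 and Calm3 share an exon plan: exon 1 ends just after the start codon, exons 2 to 5 measure 31, 144, 107 and 136 bases in both, and exon 6 holds the last 26 coding bases before the stop codon. Their ends differ, since exon 6 holds a further 618 bases in Calm2 and 1572 in Calm3, which are the stop codon and the untranslated region. Exon 2, whose length would shift the frame, was left out by 2 of 209 spanning reads of Calm2 and 2 of 338 of Calm3 in replicate 1. In replicate 2 it was left out by 0 of 141 and 0 of 127, which allows shares of up to 2.13% and 2.36% (3 reads of the total). The 2 Calm2 reads belong to an annotated transcript, Calm2-204. In Calm3, a model whose exon 4 starts 24 bases late had 1 read in each library, and it lacks most of the second calcium loop. S100a1 had 1 read in replicate 2 that joined exon 1 to exon 3 and none in replicate 1.

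Other models touched the Pvalb locus. Models assigned to Ift27, the intraflagellar transport gene downstream of Pvalb on the same strand, joined the exons of Pvalb before its last one to exons of Ift27. Such joined models had 6 and 3 reads in replicate 1 and 2 and 1 in replicate 2. In replicate 1, 2 further Ift27-assigned models with 4 reads and 1 read lay wholly within the Pvalb gene. An unannotated single-exon locus on the opposite strand lay inside the last Pvalb intron in both libraries, with 36 reads in replicate 1 (chr15:78198204-78200680) and 30 in replicate 2 (chr15:78197501-78200680). A spliced locus opposite the start of Calm3 had 2 reads in replicate 1 and 3 models of 1 read in replicate 2. The strand handling of the authors' counting is not given in the sources used here. S100a13 starts 43 bases from S100a1 on the opposite strand, and had 12 and 17 reads (10.96 and 27.1 CPM).

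The relatives of the members were mostly low. No read in either library came from 6 other buffers and calmodulin relatives, among them Calb1 and Calb2, the calbindin and calretinin genes, and Ocm, the second parvalbumin gene. Of 16 other S100 genes 8 had no read. S100a16 was the most abundant of them at 65.8 and 75.0 CPM, followed by S100a10 at 35.6 and 33.5 CPM, so S100a1 and S100a16 overlapped in range on the CPM scale. Of the 5 S100 genes tested, 2 rose in replicate 2: S100a11 (18.3 and 44.7 CPM, adjusted p = 0.022, Fisher's exact test) and S100a6 (11.9 and 38.3 CPM, adjusted p = 0.00611). With the length trend 0 of 5 were called.

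Of 29 calmodulin-activated enzymes 17 were tested, and 3 were lower in replicate 2 and none higher, with a median log2 ratio of -0.49 against -0.26 for all genes. Ppp3ca, the catalytic subunit of calcineurin, was at 221 and 180 CPM and was not called (adjusted p = 0.275, Fisher's exact test). Phkg1, the catalytic subunit of phosphorylase kinase, an enzyme that holds calmodulin as a subunit, was at 163 and 169 CPM and was not called. The kinase subunits Phka1 and Phkb and the calcineurin subunit Ppp3r1 were the 3 called, with Phka1 at 153 and 94.2 CPM and Ppp3r1 at 148 and 91.0 CPM. With the length trend 0 of 16 were called. Of 13 calmodulin-binding and calcineurin regulators 6 were tested and none was called. Rcan1, an inhibitor of calcineurin, was at 91.4 and 109 CPM and Strn3 at 163 and 134 CPM. With the length trend 1 of 6 was called, Camta1, a calmodulin-binding transcription factor (62.1 and 99.0 CPM, adjusted p = 0.0038).

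Among the genes of calcium storage and release, levels on the CPM scale ran from far above to far below those of Calm2 and Calm3. Atp2a1, the calcium pump of fast fibres, was at 93714 and 59441 CPM, and Casq1, the calcium store protein, at 9776 and 7573 CPM. Ryr1, the calcium release channel, was at 405 and 241 CPM, close to Calm3 in replicate 1 (340 CPM) and replicate 2 (230 CPM), and its voltage sensor Cacna1s at 406 and 273 CPM. The slow-fibre forms of pump and store protein lay below Calm2 and Calm3 in both libraries, Atp2a2 at 153 and 73.4 CPM and Casq2 at 139 and 84.6 CPM. Of 7 genes tested here, 6 were lower in replicate 2, and 2 of 7 with the length trend, Atp2a1 and Casq1. Among 22 other EF-hand genes, 18 were tested, 3 were higher and 1 was lower in replicate 2. Tnnc2, the troponin C of fast fibres, was at 22226 and 38093 CPM, and Tnnc1, that of slow fibres, at 314 and 402 CPM. Pvalb lay between these troponin C genes in both libraries. Tnnc2 and Rcn3 were also called with the length trend, and Tnnc1 (adjusted p = 0.238) was not.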

How the data were processed

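For each library the authors deposited a table of raw read counts, with 1 row per transcript model, and an annotation of those models. Per the deposited descriptions, these counts came from a filtered alignment on mm10 with GENCODE M21. Aligner and read correction: not given in the sources used here. Per the file headers, other columns give exon number, length and class of each model.

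ERCC reads were removed, and CPM are counts per 1000000 remaining reads (1094607 and 626289). Gene counts sum all models of an annotated gene. Models were joined between libraries by gene and intron chain, and single-exon models by class. Transcript length is the read-weighted mean over complete models. Fisher's exact test was applied to genes with at least 10 reads, and to model shares of genes with at least 50 reads per library. Against the length trend (lowess, fraction 0.3) an exact binomial test was used. The Fisher tests, but not the binomial test, were tested on simulated data with sampling noise only. Alternatives covered scaling, model classes, thinning, read minimums and leaving out each replicate. Named genes are the members, up to 4 of the most abundant genes of each list, the 2 nearest genes of each member, and overlapping genes. The members, the 6 gene lists and the 9 marker lists were chosen with earlier results of these data known. A gene of 1 list is not reported here. TMM factors came from edgeR 4.0.16 (R 4.3.3). Tests used scipy 1.17.1, the trend statsmodels 0.14.6, tables pandas 2.3.3 and figures matplotlib 3.10.9, all under Python 3.11.15.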

Additional observations from a re-analysis of the deposited data

How the results depend on the processing

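The mean CPM of each member moved by less than 1 SD under the other scalings, model classes and thinning. For Pvalb that SD was wide (1550 CPM), and its mean fell from 3997.5 CPM to 2778 CPM with complete models only. With 2 replicates, leaving out either moves a mean by a fixed part of the SD, so that setting cannot check the levels. The order of the members depended on the scale, and 2 of 4 kept their place when divided by transcript length. With either replicate left out none changed place, though Calm2 and Calm3 were tied in replicate 2. The 1070 genes called between the libraries became 535 with the length trend, and the 3 members called became 1. With complete models only and the length trend together, 302 genes and 0 members were called. Fewer genes were then tested. Of 1248 genes tested for the genomic class, 228 were called, and 148 of 629 at a minimum of 100 reads. Taken of all reads and not of complete reads, the leading models held 68.1% of Pvalb, 97.3% of Calm2, 88.2% of Calm3 and 95.1% of S100a1. With 62 and 61 reads, S100a1 was near the depth limit of these comparisons. No paired analysis was possible because the series has 1 group.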
